A study of Mus musculus with 6 samples.

Results

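The genes described here are 10 that dorsal root ganglion (DRG) neurons are known to induce after their peripheral axon is cut: *Atf3*, *Jun*, *Sox11*, *Gap43*, *Sprr1a*, *Stmn4*, *Flrt3*, *Gadd45a*, *Ecel1*, and *Cckbr*. They were chosen by symbol for that property, with earlier results of these data known. All 10 were found among the 48440 gene rows of the count table. In DRGs microinjected with AAV5-*V1+V2*, *Atf3* and *Ecel1* were higher than in DRGs microinjected with AAV5-*Gfp*, by 1.72-fold and 2.1-fold. The other 8 did not pass the test. *Gap43* and *Sox11*, usually induced together with *Atf3*, were below all controls in every AAV5-*V1+V2* library, as were 22.0% of all genes tested. All 9 sensory neuron markers listed also had negative log2 fold changes.

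Cutting the peripheral axon of a sensory neuron starts a program of transcription in the cell body in the ganglion. *Atf3* and *Jun* encode basic leucine zipper factors that pair with each other and with other AP-1 proteins, and *Sox11* encodes a high-mobility-group factor active in growing neurons. The genes that follow include growth cone and cytoskeletal proteins such as *Gap43*, while channels and receptors of the uninjured neuron are lowered. *Atf3* is close to absent from uninjured neurons and is widely used as a marker of injured ones, although macrophages and other stressed cells can also express it.

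The libraries came from wild-type male mice in 2 groups of 3 libraries. Control DRGs received AAV5-*Gfp*, an adeno-associated virus that expresses green fluorescent protein, and the others received AAV5-*V1* mixed with AAV5-*V2*, viruses for the full-length variants of *NIS-lncRNA*, a long noncoding RNA that rises in the DRG after nerve injury. The injected L3/4 DRGs were taken, and the stated time is 5 weeks in one place and 4 weeks in another. No library came from an injured nerve or from a DRG that was not injected, and each group had a virus preparation of its own, so both groups share the microinjection, whereas preparation and transcript cannot be told apart. It is not stated whether a library was 1 mouse or a pool, and p-values measure only the spread between these libraries. The level of *NIS-lncRNA* itself was not analysed here.

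Total counts were between 32025612 and 34764282. The ganglion origin was visible in every library: the summed level of 9 sensory neuron markers was 4140 to 4440 CPM (read counts scaled to a common library size) with AAV5-*Gfp* and 2530 to 3680 CPM with AAV5-*V1+V2*. All 9 had negative log2 fold changes, and 3 were called lower. In bulk tissue, fewer cells of a type and less RNA per cell cannot be told apart. The summed macrophage markers were 179 to 251 CPM against 522 to 1440 CPM, with 8 of 9 called higher, and all 5 B and plasma cell markers and 4 of 5 T cell markers were also higher. Satellite glial (2220 to 2550 against 2190 to 2500 CPM) and myelinating Schwann cell sums (3470 to 4230 against 3690 to 4090 CPM) overlapped. Fibroblast sums were 890 to 1160 against 1410 to 2000 CPM and endothelial sums 60.6 to 71.8 against 81.5 to 110 CPM, with 1 marker called higher in each list. Skeletal muscle sums, 23.7 to 381 against 9.1 to 112 CPM, overlapped, and no marker was at 0 in all libraries. The part of these differences in the results below was not tested.

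The promoters of the 3 transcription factor genes are shown because these factors head the program, and that of *Sprr1a* because it holds a match to AP-1, the motif that *Jun* and *Atf3* proteins can bind. Each is the 250 bases before the RefSeq start (GRCm38.p6), printed 5′ to 3′ in the direction of the gene, with AP-1 matches in capitals. The *Atf3* start used lies inside the gene span, which begins further upstream.
Atf3 (chr1:191183334-191183583, minus strand): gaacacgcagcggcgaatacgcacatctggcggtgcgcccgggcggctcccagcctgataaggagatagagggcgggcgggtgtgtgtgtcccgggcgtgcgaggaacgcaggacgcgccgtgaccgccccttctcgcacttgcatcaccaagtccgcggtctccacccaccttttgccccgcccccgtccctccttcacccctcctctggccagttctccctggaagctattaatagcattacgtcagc
Jun (chr4:95052223-95052472, minus strand): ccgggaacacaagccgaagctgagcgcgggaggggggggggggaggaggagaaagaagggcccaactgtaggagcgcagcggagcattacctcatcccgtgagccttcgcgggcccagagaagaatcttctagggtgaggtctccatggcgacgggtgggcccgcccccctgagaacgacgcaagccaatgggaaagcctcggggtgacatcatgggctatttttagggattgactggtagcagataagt
Sox11 (chr12:27342719-27342968, minus strand): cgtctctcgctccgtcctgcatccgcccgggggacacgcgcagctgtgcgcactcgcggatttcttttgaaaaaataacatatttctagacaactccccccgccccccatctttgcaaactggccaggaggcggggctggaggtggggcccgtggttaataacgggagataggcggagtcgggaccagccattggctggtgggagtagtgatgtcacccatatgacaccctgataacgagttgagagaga
Sprr1a (chr3:92485882-92486131, minus strand): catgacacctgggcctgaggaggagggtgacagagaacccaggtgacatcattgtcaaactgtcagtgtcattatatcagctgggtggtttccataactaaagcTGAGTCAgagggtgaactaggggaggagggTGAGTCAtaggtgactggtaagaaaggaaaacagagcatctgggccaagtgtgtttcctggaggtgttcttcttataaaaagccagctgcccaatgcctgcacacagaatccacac
The letters searched on both strands were TGANTCA for AP-1 and TGACGTCA for CRE, an element bound by ATF proteins. Of the 8 members with a promoter in the RefSeq table, 1 held an AP-1 match. This was *Sprr1a*, with 2 matches whose first bases lay at -146 and -116 from the start. Over all 32851 promoters, 6.75% held AP-1 and 1.55% held CRE, and 0 of the 8 members held CRE. A match is a run of letters, and binding was not measured. Sites that differ from these letters were not searched, so a promoter without a match can still hold such an element.

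Did the transcription factors rise when *NIS-lncRNA* was overexpressed? Among the 3, *Atf3* was higher, *Jun* was slightly above control in every library without passing the test, and *Sox11* was below. *Atf3* (ENSMUSG00000026628.13, chr1:191170296-191218039, minus strand) had 435, 418, and 413 counts with AAV5-*Gfp* (replicates 1, 2, and 3, the order kept throughout). With AAV5-*V1+V2*, *Atf3* had 812, 850, and 567 counts. Normalized to library size by TMM, these were 12.9 ± 0.757 and 22.2 ± 4.97 CPM (SD, n = 3), and the lowest AAV5-*V1+V2* library, replicate 3, still lay above the highest control. The log2 fold change of *Atf3* was 0.78 ± 0.17 (SE), with a 95% interval of 0.39 to 1.17 and an adjusted p of 0.0269 (quasi-likelihood test of edgeR, Benjamini-Hochberg adjusted over 18593 genes). The counts of the control libraries were well above 0, so that *Atf3* was detected in DRGs that had received AAV5-*Gfp* alone. The *Atf3* call was lost without AAV5-*Gfp* replicate 1, 2, or 3 (log2 fold change 0.81, 0.73, and 0.80, edgeR adjusted p = 0.0731, 0.102, and 0.105) and without AAV5-*V1+V2* replicate 2 (0.69, adjusted p = 0.0707), but its unadjusted p stayed between 2.03e-05 and 0.00987 in all 6 such fits. In AAV5-*V1+V2* replicates 1, 2, and 3, *Atf3* was at 24.7, 25.5, and 16.5 CPM and the macrophage markers summed to 1440, 758, and 522 CPM. Their part in the *Atf3* result was not tested.

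*Jun* (ENSMUSG00000052684.4, chr4:95049034-95052222, minus strand) had 828, 903, and 781 counts with AAV5-*Gfp* and 871, 1051, and 918 counts with AAV5-*V1+V2*. Its groups did not overlap in CPM (25.6 ± 0.52 against 28.3 ± 2.86, SD, n = 3), yet AAV5-*V1+V2* replicates 1 and 3 lay within 2 CPM of a control library. The log2 fold change was 0.14 ± 0.09 with a 95% interval of -0.06 to 0.35 (edgeR adjusted p = 0.279), so the interval leaves out a rise as large as the *Atf3* estimate. The antisense gene *Junos* lies over *Jun* on the opposite strand. It had 318, 419, and 403 counts against 321, 291, and 286 counts, and a log2 fold change of -0.38 ± 0.13 (edgeR adjusted p = 0.0892). The use of strand in the counting is not stated, so how reads were divided between the pair is unknown.

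*Sox11* (ENSMUSG00000063632.6, chr12:27334264-27342574, minus strand) had 230, 254, and 215 counts against 183, 223, and 203 counts. Every AAV5-*V1+V2* library was below every control library in CPM (7.12 ± 0.22 against 6.06 ± 0.582, SD, n = 3). Its log2 fold change of -0.23 ± 0.12, with a 95% interval of -0.51 to 0.04, did not pass (edgeR adjusted p = 0.203).

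**Figure D1:**
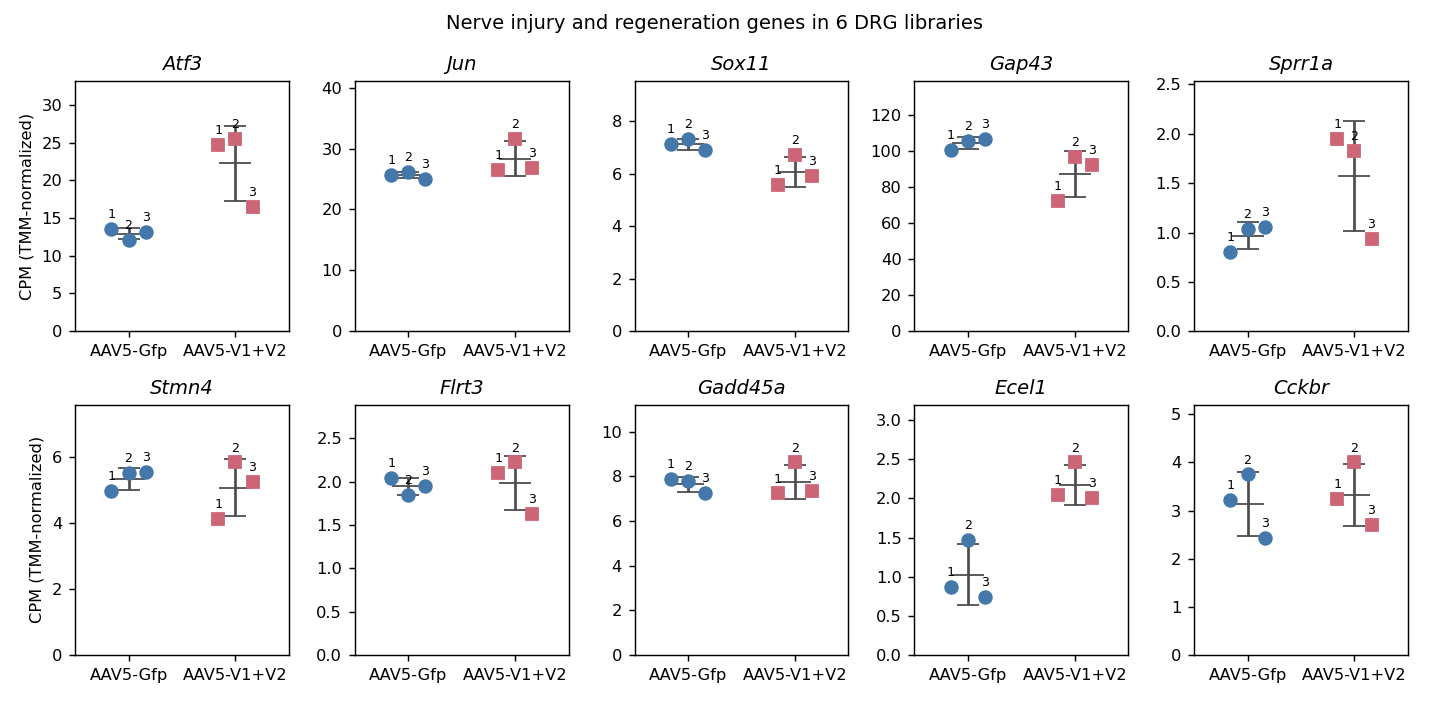
TMM-normalized CPM of the 10 genes in each library, with replicate numbers beside the points and the mean and SD of 3 libraries per group as bars. The AAV5-*V1+V2* libraries lie above all control libraries for *Atf3*, *Jun*, and *Ecel1*, and below them for *Sox11* and *Gap43*, and for the other 5 the groups overlap.

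Of the 4 genes for growth and axon proteins, none passed the test in edgeR, 1 had an unadjusted p under 0.05 (*Gap43*), and DESeq2 and limma-voom also called 0 of them. *Gap43*, a growth cone protein under the membrane and the most abundant member, had lower values with AAV5-*V1+V2*, whereas *Sprr1a* had higher values in 2 of 3 libraries. *Gap43* (ENSMUSG00000047261.9, chr16:42248442-42340651, minus strand) had 3257, 3679, and 3336 counts with AAV5-*Gfp* and 2389, 3225, and 3172 counts with AAV5-*V1+V2*. AAV5-*V1+V2* replicate 1 was the lowest, at 72.6 CPM, and the other 2 were at 96.9 and 92.5 CPM, under the control range of 101 to 107 CPM. The log2 fold change of *Gap43* was -0.26 ± 0.11 (95% interval -0.52 to -0.01, edgeR adjusted p = 0.137). Without AAV5-*V1+V2* replicate 1 it was -0.14 ± 0.05 (edgeR adjusted p = 0.11). That library also had the lowest sum of sensory neuron markers, 2530 CPM, and whether the 2 are connected was not tested.

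*Sprr1a* encodes a small proline-rich protein of cornifying epithelia that axotomized sensory neurons also make (ENSMUSG00000050359.7, chr3:92483952-92485895, minus strand). It had 26, 36, and 33 counts with AAV5-*Gfp* and 64, 61, and 32 counts with AAV5-*V1+V2*. AAV5-*V1+V2* replicates 1 and 2 were above the controls, and replicate 3 fell inside their range at 0.933 CPM. The log2 fold change was 0.69 ± 0.31 with a 95% interval of -0.03 to 1.42 (edgeR adjusted p = 0.158). Without AAV5-*V1+V2* replicate 3, *Sprr1a* was higher by 0.97 ± 0.23 (edgeR adjusted p = 0.0288). The 4 keratinocyte markers summed to 1.51 to 1.61 CPM with AAV5-*Gfp* and 1.25 to 1.54 CPM with AAV5-*V1+V2*. The epithelial relatives *Sprr2d* and *Sprr3* had no count in any library, and *Sprr1b* had 0, 0, and 1 counts against 2, 3, and 1 counts. Which cells the *Sprr1a* reads came from was not tested.

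*Stmn4* (ENSMUSG00000022044.14, chr14:66344296-66361680, plus strand), a tubulin-binding stathmin, had 160, 191, and 173 counts against 136, 194, and 180 counts. Its groups overlapped, with a log2 fold change of -0.07 ± 0.16 and a 95% interval of -0.44 to 0.29. *Flrt3* (ENSMUSG00000051379.12, chr2:140650914-140671469, minus strand), a leucine-rich repeat membrane protein of cell adhesion, had 66, 64, and 61 counts against 69, 74, and 56 counts. The *Flrt3* groups overlapped as well, at 0.03 ± 0.18 (95% interval -0.39 to 0.44). *Flrt3* lies inside *Macrod2*, which is on the opposite strand, had 7508 to 15080 counts, and was lower with AAV5-*V1+V2* (-0.66 ± 0.13, edgeR adjusted p = 0.0227). A rise of *Stmn4* or *Flrt3* of the size estimated for *Atf3* lies outside both intervals. The *Flrt3* interval does overlap the *Atf3* interval of 0.39 to 1.17.

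Among the stress gene, the peptidase, and the receptor, *Ecel1* was higher and the other 2 overlapped between groups. *Ecel1* (ENSMUSG00000026247.13, chr1:87147655-87156521, minus strand), a membrane peptidase of the endothelin-converting enzyme family that damaged neurons induce, had 28, 51, and 23 counts with AAV5-*Gfp*. With AAV5-*V1+V2* it had 67, 82, and 69 counts. The group levels were 1.03 ± 0.392 and 2.17 ± 0.254 CPM (SD, n = 3), and AAV5-*Gfp* replicate 2, at 1.47 CPM, was the control nearest to the others, which began at 2.01 CPM. The log2 fold change was 1.07 ± 0.28, with a 95% interval of 0.42 to 1.72 (edgeR adjusted p = 0.0432). These were low counts, and the *Ecel1* call held only without AAV5-*V1+V2* replicate 3 (adjusted p = 0.0496) when libraries were left out 1 at a time. Without AAV5-*Gfp* replicates 1, 2, and 3 its log2 fold change was 0.96, 1.43, and 0.89 (edgeR adjusted p = 0.125, 0.0815, and 0.137), and without AAV5-*V1+V2* replicates 1 and 2 it was 1.12 and 0.98 (adjusted p = 0.0537 and 0.11).

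*Gadd45a* (ENSMUSG00000036390.8, chr6:67035096-67037457, minus strand), which is induced by DNA damage and other stress, had 254, 270, and 227 counts against 238, 287, and 252 counts. Its log2 fold change was 0.02 ± 0.11 with a 95% interval of -0.25 to 0.28. A gene on the opposite strand, *E230016M11Rik*, overlaps *Gadd45a*, had 676 to 962 counts, and was lower by edgeR's test (-0.31 ± 0.08, adjusted p = 0.0426). *Cckbr* (ENSMUSG00000030898.15, chr7:105425731-105470898, plus strand), a receptor for cholecystokinin and gastrin, had 104, 130, and 76 counts against 107, 133, and 93 counts. Its groups overlapped, and its log2 fold change was 0.08 ± 0.22 with a 95% interval of -0.43 to 0.59. Both intervals lie below the *Atf3* estimate, but that of *Cckbr* overlaps the *Atf3* interval of 0.39 to 1.17.

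Over the whole list, 2 of 10 members were called higher and 0 were called lower, where 10.1% of the 18593 genes tested were called higher and 5.27% lower. A count of 2 in 10 is thus near the background. An unadjusted p under 0.05 in edgeR was seen for 2 higher members and 1 lower member, against 19.2% and 15.5% of all genes. DESeq2 and limma-voom each called 2 members higher (12.9% and 7.64% of all genes) and 0 lower. All AAV5-*V1+V2* libraries lay above all AAV5-*Gfp* libraries for 3 members and below them for 2, against 23.4% and 22.0% of all genes. For these 5, an exact permutation of the libraries (two-sided) had p = 0.1, and 3 libraries against 3 cannot go lower. The median log2 fold change of the members was 0.05, and that of all genes tested was -0.0003. The list therefore did not move as 1 block: it ran from -0.26 for *Gap43* to 1.07 for *Ecel1*. Leaving out AAV5-*Gfp* replicate 1, 2, or 3 or AAV5-*V1+V2* replicate 2 left 0 members called by edgeR, with 2 higher at an unadjusted p under 0.05 each time. Without AAV5-*V1+V2* replicate 1 there was 1 (*Atf3*), and without replicate 3 there were 3 (*Atf3*, *Sprr1a*, *Ecel1*). Fewer genes of any kind passed without a control library, 257, 12, and 15 higher ones without AAV5-*Gfp* replicates 1, 2, and 3, in place of 1872. Without AAV5-*V1+V2* replicates 1, 2, and 3, the higher genes numbered 1862 of 18897, 1020 of 18902, and 2474 of 18945 tested.

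**Figure D2:**
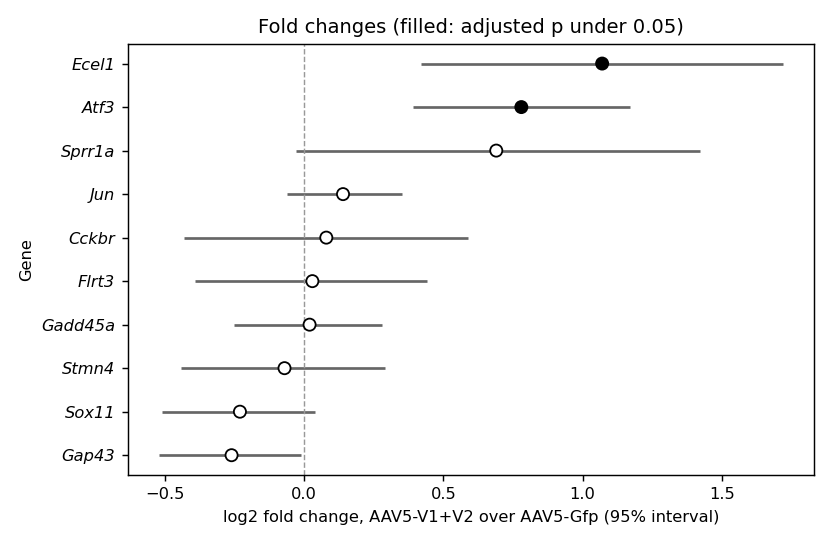
Log2 fold changes (AAV5-*V1+V2* over AAV5-*Gfp*) of the 10 genes with 95% intervals from edgeR, in order of size. *Ecel1* at 1.07 and *Atf3* at 0.78 are filled as called, the *Sprr1a* interval of -0.03 to 1.42 crosses 0, and *Gap43* at -0.26 is the lowest.

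**Figure D3:**
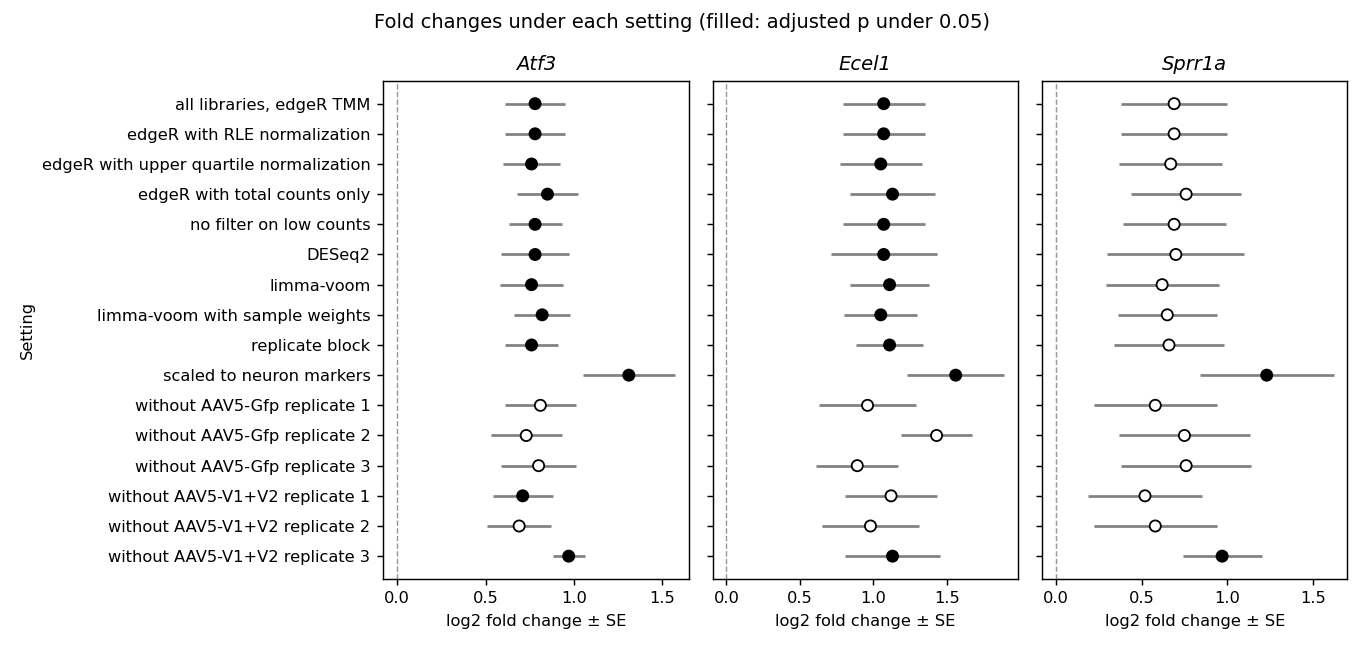
Log2 fold changes ± SE of *Atf3*, *Ecel1*, and *Sprr1a* under each of 16 settings, with calls filled. All values are above 0, *Atf3* between 0.69 and 1.31 and *Ecel1* between 0.89 and 1.56, while the calls come and go as libraries are left out.

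Within the AAV5-*V1+V2* group, replicate 2 had the highest CPM of the group for 9 of 10 members, and replicate 1 for the other, *Sprr1a*. Over all genes tested, replicate 2 was the highest of its group for 24.5%. The lowest library was replicate 1 for 5 members and replicate 3 for 5. In the AAV5-*Gfp* group the highest library was replicate 1, 2, and 3 for 3, 4, and 3 members. The members share their libraries, so these counts describe 3 libraries and are not separate observations.

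Levels can be set against each other only per length. Per kilobase of exon, the AAV5-*Gfp* mean was 68.7 CPM for *Gap43*, 8.02 for *Jun*, 6.0 for *Atf3*, 4.33 for *Gadd45a*, and 2.79 for *Stmn4*, and no neighbours in this order overlapped between libraries. Below them were *Sprr1a* at 1.2, *Cckbr* at 1.1, and *Sox11* at 0.856 CPM per kilobase, where each overlapped the next, and *Flrt3* at 0.401 and *Ecel1* at 0.293, which overlapped too. With AAV5-*V1+V2*, *Atf3* had a mean of 10.3 CPM per kilobase and *Jun* 8.86, but their libraries overlapped (7.67 to 11.9 and 8.3 to 9.9). *Gap43* remained the most abundant, at 57.3 CPM per kilobase. Thus *Ecel1*, with the largest fold change, was the least abundant member in controls.

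Because the neuronal markers were lower with AAV5-*V1+V2*, members were also set against *Gap43* in the same library, a ratio chosen after the values were seen and given without a test. Per 100 *Gap43* counts, *Atf3* had 13.4, 11.4, and 12.4 counts with AAV5-*Gfp* and 34.0, 26.4, and 17.9 with AAV5-*V1+V2*. *Ecel1* had 0.86, 1.39, and 0.689 against 2.8, 2.54, and 2.18 counts per 100 *Gap43* counts. *Jun* had 25.4, 24.5, and 23.4 against 36.5, 32.6, and 28.9. For these 3 genes no library of one group reached into the other. Their CPM lay above all controls and that of *Gap43* below them, so this separation was fixed beforehand. *Sprr1a* had 0.798, 0.979, and 0.989 against 2.68, 1.89, and 1.01, where replicate 3 was close to 2 of the controls. Because *Gap43* itself was low in every AAV5-*V1+V2* library, the neuronal tubulin *Tubb3*, which was low in them too, was also used. Per 100 *Tubb3* counts, *Atf3* had 0.909, 0.861, and 0.877 against 3.21, 2.07, and 1.31 counts, and *Jun* and *Ecel1* again did not overlap. The *Tubb3* CPM also lay below all controls in every AAV5-*V1+V2* library, so this too was fixed beforehand. How many of all genes would separate on either ratio was not counted. *Sprr1a* had 0.0543, 0.0741, and 0.0701 against 0.253, 0.149, and 0.0737, so that replicate 3 fell inside the control range.

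**Figure D4:**
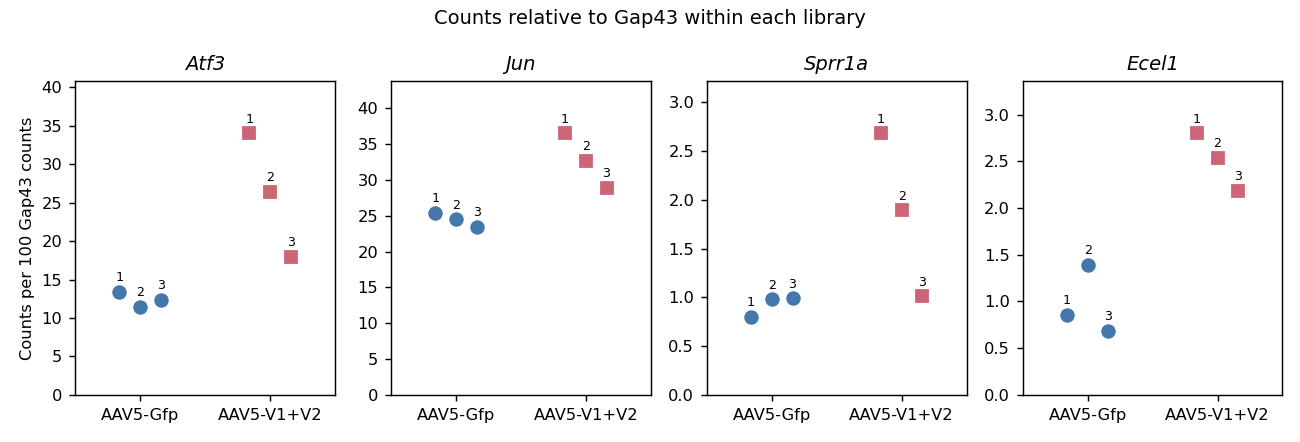
Counts of *Atf3*, *Jun*, *Sprr1a*, and *Ecel1* per 100 *Gap43* counts in each library, with replicate numbers beside the points. *Atf3* was at 11.4 to 13.4 with AAV5-*Gfp* and at 17.9 to 34.0 with AAV5-*V1+V2*, and *Sprr1a* of AAV5-*V1+V2* replicate 3, at 1.01, sits just above the controls.

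Scaling the libraries to the 9 sensory neuron markers in place of TMM, an alternative added after seeing the data, moved the median log2 fold change of all genes to 0.51. On that scale 33.6% of all genes were called higher by edgeR, and so were 4 of the 10 members, which is near that share: *Atf3* at 1.31 (adjusted p = 0.0199), *Ecel1* at 1.56 (0.0242), *Jun* at 0.64 (0.0354), and *Sprr1a* at 1.23 (0.0452). Relative to the shifted median they were 0.81, 1.05, 0.14, and 0.73. *Gap43* and *Sox11* were at 0.22 and 0.26 on that scale, and relative to the median they were -0.28 and -0.24, close to their values under TMM. Neither of them was called on either scale.

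Beyond the members, 27 other genes known to be induced in injured DRGs were followed, and they too moved in both directions. Of the 24 that could be tested (*Vip*, *Il6*, and *Crh* had too few counts), 2 were higher, 2 were lower, and the median log2 fold change was -0.04. Over all genes tested, 10.1% were called higher and 5.27% lower. At an unadjusted p under 0.05 in edgeR there were 6 higher and 6 lower, against 19.2% and 15.5% of all genes. *Klf6*, a zinc finger factor of regenerating neurons that many other cells express, had 1900, 1918, and 1834 counts against 2540, 2501, and 2514 counts (log2 fold change 0.38 ± 0.06, edgeR adjusted p = 0.0148). *Csf1*, the cytokine by which injured sensory neurons act on microglia and macrophages, had 481, 504, and 442 counts against 848, 720, and 618 counts (0.58 ± 0.13, edgeR adjusted p = 0.0301). In both, every AAV5-*V1+V2* library was above the controls. The genes called lower were *Cacna2d1*, the calcium channel subunit bound by gabapentin (-0.50 ± 0.12, edgeR adjusted p = 0.0361), and *Mmp16*, a membrane metalloproteinase (-0.40 ± 0.09, adjusted p = 0.0278). *Cacna2d1* had 9930, 11761, and 11937 counts against 6884, 8711, and 8826 counts. On the scale of the neuronal markers, *Cacna2d1* was at -0.01 (edgeR adjusted p = 0.957) and *Mmp16* at 0.10 (0.604). The median of all genes on that scale was 0.51, and neither gene was called.

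All 4 of these calls were lost when an AAV5-*Gfp* library was left out. Without AAV5-*Gfp* replicates 1, 2, and 3, 59, 0, and 0 of all genes were called lower, in place of 980. The higher ones numbered 257, 12, and 15, in place of 1872. Without AAV5-*Gfp* replicates 1, 2, and 3 the edgeR adjusted p was 0.0521, 0.0826, and 0.0875 for *Klf6* and 0.0823, 0.105, and 0.118 for *Csf1*. It was 0.0638, 0.113, and 0.128 for *Cacna2d1* and 0.0563, 0.0926, and 0.0983 for *Mmp16*. Without AAV5-*V1+V2* replicate 2, *Csf1*, *Cacna2d1*, and *Mmp16* had adjusted p values of 0.0735, 0.0648, and 0.064, and *Adcyap1*, a neuropeptide gene, was then called lower (-0.40, 0.0488). Without AAV5-*V1+V2* replicate 3, 5 of the genes were higher: *Klf6*, *Csf1*, *Socs3*, *Npy*, and *Basp1*. In that fit 2474 of the 18945 genes tested were called higher.

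*Socs3*, a brake on cytokine signalling that limits axon regrowth, had 172, 143, and 146 counts against 442, 267, and 215 counts, without overlap (0.97 ± 0.28, edgeR adjusted p = 0.0552). *Socs3* was called higher by DESeq2 (adjusted p = 0.00728), by limma-voom with sample weights (0.0202), and by edgeR with total counts (0.0465), without the filter (0.0342), or with the replicate block (0.0229), but not with RLE, upper quartile, or limma-voom (0.0567, 0.0545, and 0.0835). *Npy*, a neuropeptide of injured large sensory neurons, had 43, 69, and 55 counts against 129, 133, and 56 counts. As for *Sprr1a*, replicate 3 of *Npy* stayed within the controls (0.90 ± 0.35, edgeR adjusted p = 0.118). The neuropeptide gene *Gal* had 113, 162, and 125 counts against 202, 180, and 169 counts (0.43 ± 0.16, edgeR adjusted p = 0.101). The growth protein *Basp1*, a relative of *Gap43* in function, had 0.32 ± 0.12 (edgeR adjusted p = 0.109), while the tubulin and stathmin genes *Tubb2b* and *Stmn2* had -0.31 ± 0.13 and -0.35 ± 0.14. Neither *Smad1* (-0.20 ± 0.08) nor *Myc* (0.10 ± 0.14), both transcription factors of the injury response, passed the test.

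Genes that axotomy lowers gave values in 1 direction. All 14 (channels, receptors, peptides, and neurofilaments of uninjured sensory neurons) had negative log2 fold changes, with a median of -0.31 against -0.0003 for all genes. For 11 of them every AAV5-*V1+V2* library lay below every control library, as for 22.0% of all genes. EdgeR called 0 of the 14 lower, with 8 at an unadjusted p under 0.05, where 15.5% of all genes were lower by that criterion. DESeq2 called 4 of the 14 lower (8.64% of all genes), limma-voom 0 (4.53%), and limma-voom with sample weights 5 (10.7%). *Scn10a*, the sodium channel of nociceptors, had 19770, 22272, and 23656 counts against 11303, 15450, and 18146 counts (-0.59 ± 0.17, edgeR adjusted p = 0.0542). *P2rx3*, an ATP receptor of nociceptors, had 1789, 2265, and 2027 counts against 1196, 1637, and 1671 counts (-0.47 ± 0.13, adjusted p = 0.0510). *Scn11a* and the potassium channel gene *Kcna2* had -0.47 ± 0.15 and -0.38 ± 0.12 (edgeR adjusted p = 0.0769 and 0.0647). Without AAV5-*V1+V2* replicate 1, *Scn10a*, *P2rx3*, and *Tac1* were called lower, and without replicate 3, *Scn10a*, *Scn11a*, *P2rx3*, and *Kcna2* were. In these fits 1095 of 18897 and 1446 of 18945 genes tested were called lower.

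The sensory neuron markers, which were listed as marks of cell type, had a median of -0.43, beyond that of these 14. On the scale of the neuronal markers *Scn10a*, *P2rx3*, *Scn11a*, and *Kcna2* had log2 fold changes of -0.11, 0.01, 0.01, and 0.10, beside the median of 0.51 for all genes, and none of the 4 was called.

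**Figure D5:**
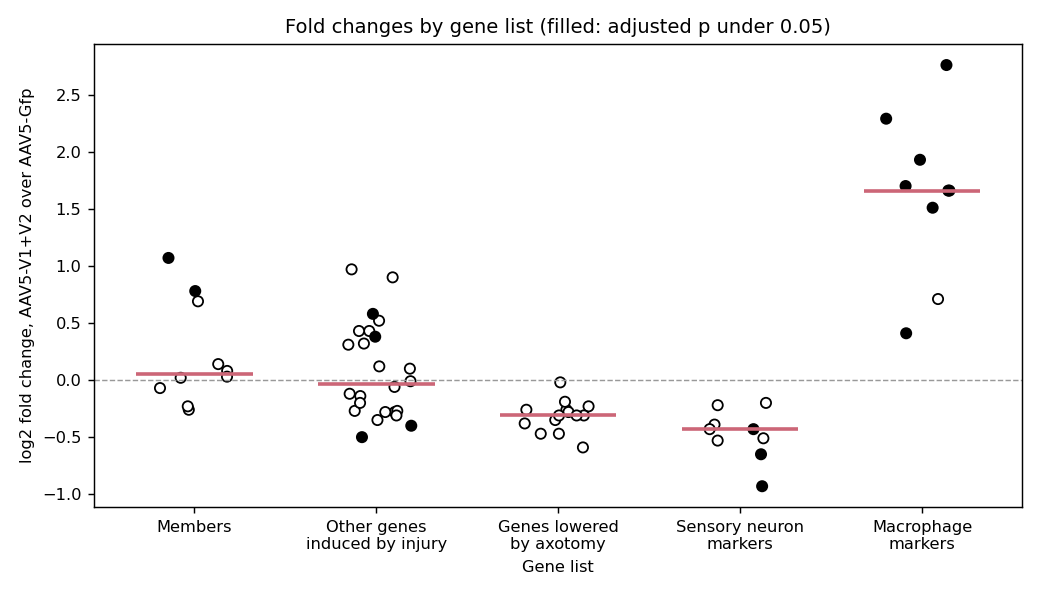
Log2 fold changes (AAV5-*V1+V2* over AAV5-*Gfp*) of the genes tested in 5 lists, filled where edgeR's adjusted p was under 0.05, with the list median as a line. Members and other induced genes straddle 0 (medians 0.05 and -0.04), the genes lowered by axotomy and the sensory neuron markers lie below it (-0.31 and -0.43), and the macrophage markers lie above it (1.66).

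Relatives of the members were also measured, 17 of 22 with enough counts. EdgeR called 3 of them higher and 0 lower, against 10.1% and 5.27% of all genes tested. The relatives included the AP-1 genes *Fos*, *Junb*, and *Jund*, which pair with the *Jun* protein or stand in for it. *Fos* had 121, 139, and 132 counts against 281, 335, and 236 counts, a log2 fold change of 1.09 ± 0.16 (edgeR adjusted p = 0.0144). *Junb* had 343, 300, and 198 counts against 656, 540, and 394 counts (0.89 ± 0.24, edgeR adjusted p = 0.0492). *Flrt2*, unlike *Flrt3*, was higher, with 2049, 2222, and 1950 counts against 2658, 2874, and 2981 counts (0.42 ± 0.06, edgeR adjusted p = 0.0144). *Gadd45b* had 0.65 ± 0.18 (edgeR adjusted p = 0.0516) beside 0.02 ± 0.11 for *Gadd45a*, and was called by DESeq2 (adjusted p = 0.0295). The differences between these relatives and the members were not tested. *Fos* and *Flrt2* lost their calls without AAV5-*Gfp* replicates 1, 2, and 3 (edgeR adjusted p = 0.0518, 0.0815, and 0.0875 for *Fos* and 0.0514, 0.0815, and 0.0875 for *Flrt2*). *Junb* lost its call without any library other than AAV5-*V1+V2* replicate 3, with adjusted p values of 0.0701, 0.137, and 0.153 without AAV5-*Gfp* replicates 1, 2, and 3 and of 0.0903 and 0.11 without AAV5-*V1+V2* replicates 1 and 2. With all libraries, *Junb* also missed the threshold under upper quartile normalization (adjusted p = 0.0513) and limma-voom (0.0607). The remaining relatives, without *Sprr1b*, *Sprr2d*, *Sprr3*, *Flrt1*, and *Cck*, for which counts were too few, did not pass.

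Of 8 genes that Schwann cells turn on in an injured nerve, 4 had enough counts to be tested (*Shh*, *Gdnf*, *Ngfr*, and *Runx2*). EdgeR called 0 of them in either direction, and 1 was higher at an unadjusted p under 0.05, as were 19.2% of all genes. That gene was *Runx2*, which other cells express too, with 1356, 1664, and 1523 counts against 3557, 2117, and 1955 counts (0.72 ± 0.23, edgeR adjusted p = 0.0728). DESeq2 called it, and so did edgeR without AAV5-*V1+V2* replicate 1 (0.39, adjusted p = 0.0232) or replicate 3 (0.90, 0.0271). *Sox2*, a gene of immature Schwann cells, had no count in any library, which allows up to 3 counts per library if reads over it were counted. The counting rules are not stated, so this is not read as absence of the transcript.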

How the data were processed

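Total RNA of microinjected DRGs was made into stranded libraries, per the labels. The authors deposited whole-number read counts per gene symbol, without normalization. The submitters' notes name GRCm38 and mm10. The aligner, counter, and use of strand are not given in the sources used here. Members and lists were chosen with earlier results of these data known.

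In edgeR 4.0.16 (R 4.3.3), low counts were removed by filterByExpr, TMM factors were applied, and glmQLFTest after glmQLFit compared 3 AAV5-V1+V2 with 3 AAV5-Gfp libraries without a covariate. A Benjamini-Hochberg adjusted p under 0.05 over 18593 genes was a call. Standard errors were taken from each coefficient and its F statistic. Single CPM values were compared by exact permutation in scipy 1.17.1. Alternatives used RLE, upper quartile, or total counts, no filter, DESeq2 1.42.0, limma-voom (limma 3.58.1), a replicate block, a threshold of 0.1, each library left out, and neuron-marker scaling. All members were named, and of each other list the called genes and up to 4 with the smallest p. *Tac1*, *Jund*, and the genes that overlap members were named after their values were seen. Gene positions and exon lengths are from GENCODE M21. Fits were tested on simulated data.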

Additional observations from a re-analysis of the deposited data

How the results depend on the processing

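*Atf3* and *Ecel1* were the members called higher, and 0 were called lower, under RLE, upper quartile, total counts, no filter, DESeq2, both forms of limma-voom, and a threshold of 0.1. Leaving out 1 library gave 0 to 3 members higher, and scaling to neuronal markers gave 4. With a library left out, 12 to 2474 genes of any kind were called higher. Other induced genes higher numbered 0 to 5 with a library left out and 9 with neuronal scaling, where 33.6% of all genes were called higher. Other induced genes lower numbered 0 to 2 with a library left out and 0 with neuronal scaling. Genes lowered by axotomy called lower numbered 1 with RLE, 1 with upper quartile, 2 without the filter, 4 with DESeq2, 5 with sample weights, 6 at the threshold of 0.1, and 0 to 4 with a library left out. The cause of these changes was not tested.

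Whether the replicate numbers pair the libraries could not be settled. Same-numbered libraries had correlated deviations of 0.0378, 0.0649, and 0.1386, and differently numbered ones lay between -0.1383 and 0.0719. Not every library correlated best with its own number. With a replicate block, 2 members were higher, 4 other induced genes were higher, and 4 genes lowered by axotomy were lower.

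Values close to 0 changed sign. *Stmn4* was at 0.05 with sample weights and between -0.17 and 0.06 with a library left out. With upper quartile, *Flrt3* was at -0.0006 and *Gadd45a* at -0.01. With a library left out, *Flrt3* lay between -0.05 and 0.16, *Gadd45a* between -0.06 and 0.07, and *Cckbr* between -0.07 and 0.23. *Myc* was at -0.002 with sample weights. Neuronal scaling, which moved the median of all genes to 0.51, turned *Sox11* (0.26), *Gap43* (0.22), *Stmn4* (0.41), *Smad1* (0.32), *Adcyap1* (0.21), *Gfra1* (0.25), *Mmp16* (0.10), *Stmn2* (0.13), *Tubb2b* (0.16), *P2rx3* (0.01), *Kcna2* (0.10), *Scn11a* (0.01), *Shh* (0.30), and *Ngfr* (0.33). *Ecel1* and *Sprr1a* had standard errors of 0.28 and 0.31, above those of the other members. Both had under 100 counts in each library, but so did *Flrt3*, with a standard error of 0.18.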
